A study of Mus musculus with 9 samples.

Results

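The NRF2 antioxidant and metallothionein genes were described in intestinal epithelial cells (IECs) of mice whose natural killer T (NKT) cells had been activated. The 10 members were taken by name: Nfe2l2, which encodes the transcription factor NRF2, its well-known target genes Nqo1, Gclc, Gclm, Hmox1, Txnrd1, Srxn1 and Gpx2, and the metallothionein genes Mt1 and Mt2. All 10 were among the 29288 genes of the count table and among the 18933 that passed the filter on low counts. RNA was sequenced from 9 female wild-type C57BL/6J mice, aged 7 to 10 weeks per the study's methods, with 3 in each group and 1 mouse per library. The control group received PBS and was sampled at 18 h. The 18h-αGal and 72h-αGal groups received 2 µg of α-galactosylceramide (αGalCer), a glycolipid antigen shown to NKT cells by CD1d, and were sampled 18 h and 72 h later. All cells were sorted from crypts of the proximal small intestine as live EpCAM+, Ter119-, CD31- and CD45- cells, so each library was a mixture of epithelial cell types. No PBS group was sampled at 72 h, so at that time an effect of αGalCer and one of time cannot be told apart. The study used αGalCer to ask how IECs respond to NKT cell activation, and the comparisons below ask which of these antioxidant genes differed at each time.

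NRF2 is made continuously and is normally held and sent for degradation by KEAP1, a protein whose reactive cysteines sense oxidants and electrophiles. When KEAP1 is modified, NRF2 accumulates, pairs with small MAF proteins and binds antioxidant response elements (AREs), sites that the repressor BACH1 can also occupy. Its targets make glutathione, recycle thioredoxin and glutathione, reduce peroxides and quinones, degrade heme and supply NADPH. Metallothioneins are small cysteine-rich proteins that bind zinc and copper, and their genes are switched on by the zinc sensor MTF1 through metal response elements (MREs). NRF2 is controlled mainly as a protein, which RNA sequencing does not measure.

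Total counts ranged from 8887861 in control replicate 3 to 32722293 in control replicate 1. Epithelial markers were high throughout, with a summed level of 4428 to 6323 CPM (the count relative to the scaled library total) for 7 genes, whereas markers of lymphocytes summed to at most 9.852 CPM over the 11 genes of that list in the table. Levels of cell type markers differed between libraries. The summed level of 10 enterocyte markers was 7944 to 21650 CPM in control, 10320 to 16660 CPM in 18h-αGal and 5243 to 10320 CPM in 72h-αGal, and its highest value was that of control replicate 3. The 6 stem cell markers summed to 2171 to 4271 CPM in control, 601.3 to 2073 CPM in 18h-αGal and 2840 to 4529 CPM in 72h-αGal. Of the other epithelial types, 8 enteroendocrine markers summed to 430.1 to 573.1 CPM in control, 615.4 to 974.2 CPM in 18h-αGal and 194.9 to 296.7 CPM in 72h-αGal, and those of tuft cells to 122.1 to 223.8, 224.6 to 410.5 and 129.7 to 216.2 CPM. Sums for Paneth, goblet and proliferating cells overlapped between control and each treated group, at 946.8 to 4292, 6124 to 19340 and 887.2 to 1700 CPM. The erythroid list had 1 of its 6 markers in the table, at no more than 3.979 CPM. The endothelial and stromal markers summed to 4.131 to 5.949 CPM in control, 1.258 to 1.77 CPM in 18h-αGal and 1.256 to 2.523 CPM in 72h-αGal. In bulk RNA, fewer cells of a type and less RNA per cell cannot be told apart. Of 12 interferon-γ response genes, 9 were called higher at 18 h, with a median log2 fold change of 2.82, compared with 3.27% of all genes. At 72 h against control 0 were called, compared with 0.0264% of all genes. There 1 had an unadjusted p under 0.05 in edgeR, and DESeq2 also called 0. A gene was called when its adjusted p, from the edgeR quasi-likelihood test with Benjamini-Hochberg adjustment over all genes, was under 0.05, and "normalised" means the deposited count divided by the size factor of the library. Fold changes are on the log2 scale, with the standard error (SE).

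The abundance of the members was compared as CPM per kilobase of the canonical transcript. In control, Mt1 had a mean of 194 ± 163 (SD, n = 3), Nfe2l2 of 137 ± 21 and Gpx2, a gastrointestinal glutathione peroxidase that removes hydroperoxides, of 122 ± 10.5. The libraries of these 3 genes overlapped, so their order was not resolved. Txnrd1, the cytosolic thioredoxin reductase, followed with 84.5 ± 18.5, below each library of Gpx2. Gclc, the catalytic subunit of glutamate-cysteine ligase, had 22.3 ± 2.89. Srxn1, which encodes sulfiredoxin and repairs over-oxidised peroxiredoxins, had 13.2 ± 5.7, Gclm, the modifier subunit of the ligase, had 11.2 ± 1.54, and Nqo1, the NAD(P)H quinone reductase, had 11.1 ± 2.05. These 4 levels overlapped between neighbours. Mt2 had 3.52 ± 5.8 and Hmox1, which encodes the heme-degrading heme oxygenase 1, had 0.196 ± 0.171. Mt2 and Hmox1 had the lowest means in control and also in both treated groups. Their libraries overlapped in every group, and in control those of Mt2 also overlapped those of Nqo1. The level of Mt2 is uncertain, because 82.4% of its exon bases are shared with an antisense gene, as described below. At 18 h Gpx2 had the highest mean of the 10 genes, 199 ± 31.9, but its libraries overlapped those of Mt1 at 162 ± 40.4. At 72 h Mt1 had the highest mean, 223 ± 106, with libraries that overlapped those of Gpx2, and Srxn1 had 8.41 ± 2.39, with libraries that overlapped those of Gclm and Mt2.

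Upstream sequence was looked up for the genes on which the results turn. RefSeq promoter windows on the build GRCm38.p6 were found for 8 of the 10 members, as 10 windows because Txnrd1 had 3, and the 250 bases before each annotated start were searched on both strands. The ARE core TGACNNNGC was present in 4 members, Nfe2l2, Gclm, Mt2 and 1 of the 3 windows of Txnrd1. It was present in 10.2% of all 32851 windows of that length. The MRE core, searched as TGCACNC and TGCGCNC, was present in Gclm, Srxn1, Mt1 and Mt2, and in 21.4% of all windows. In Gclm a match of each motif overlapped. The bases shown belong to Gpx2, the member called at 18 h, Srxn1, the member with the largest difference between the time points, and the neighbouring pair Mt1 and Mt2. They are read 5′ to 3′ along the strand of the gene, with MRE core matches in capitals. Bases that lie within the GENCODE canonical transcript were left off, which removed an ARE core match and an MRE core match of Mt2.
Gpx2: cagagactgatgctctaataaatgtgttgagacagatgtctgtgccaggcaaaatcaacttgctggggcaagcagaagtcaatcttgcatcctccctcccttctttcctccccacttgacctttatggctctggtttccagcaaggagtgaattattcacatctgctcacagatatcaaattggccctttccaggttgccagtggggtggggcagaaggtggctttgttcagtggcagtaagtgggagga
Srxn1: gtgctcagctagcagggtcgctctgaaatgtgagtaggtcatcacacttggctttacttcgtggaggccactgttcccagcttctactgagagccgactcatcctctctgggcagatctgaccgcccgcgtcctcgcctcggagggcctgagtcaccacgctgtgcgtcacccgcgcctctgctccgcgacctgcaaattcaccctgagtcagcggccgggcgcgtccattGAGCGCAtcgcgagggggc
Mt1: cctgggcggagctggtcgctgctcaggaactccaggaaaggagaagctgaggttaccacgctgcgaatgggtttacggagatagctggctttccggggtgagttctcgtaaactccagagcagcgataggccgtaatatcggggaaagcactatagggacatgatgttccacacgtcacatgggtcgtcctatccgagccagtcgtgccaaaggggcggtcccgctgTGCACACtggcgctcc
Mt2: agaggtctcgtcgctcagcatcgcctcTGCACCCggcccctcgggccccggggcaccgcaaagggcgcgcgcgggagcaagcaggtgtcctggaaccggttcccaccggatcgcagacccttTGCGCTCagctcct
The windows shown are chr12:76795555-76795804 on the minus strand for Gpx2, chr2:152105274-152105523 on the plus strand for Srxn1, chr8:94178839-94179081 on the plus strand for Mt1 and chr8:94172368-94172503 on the plus strand for Mt2. Gpx2 held neither motif in its 250 bases, Srxn1 held 1 MRE core match, Mt1 held 1 and Mt2 held 3, of which 2 are shown. A match is a string of letters and was not measured as a binding site. Only these letters within 250 bases were searched, so a gene without a match is not shown to lack a site.

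Gpx2 was the only one of the 10 members called at 18 h. Its normalised counts were 2265, 2565 and 2717 in control replicates 1 to 3, and 4142, 4694 and 3433 in the 18h-αGal replicates. Each 18h-αGal library lay above each control library. Gpx2 (ENSMUSG00000042808, chr12:76839107-76842326 on the minus strand of GRCm39, the build of all gene positions) rose by a log2 fold change of 0.71 ± 0.168 (SE), or 1.64-fold, with an adjusted p of 0.0227 in edgeR. Across all genes, 5.96% were called at 18 h, 3.27% higher and 2.69% lower, so 1 member of 10 is close to the background. The call was lost without control replicate 1 (adjusted p = 0.107), control replicate 2 (0.061), 18h-αGal replicate 1 (0.0653) or 18h-αGal replicate 2 (0.115), all in edgeR, while the log2 fold change stayed between 0.60 and 0.83. At 72 h Gpx2 had 4155, 2947 and 2516 normalised counts, with 1 library within the range of 18h-αGal, 1 within that of control and 1 between them. Its log2 fold change from control at 72 h was 0.36 ± 0.168 with an adjusted p of 0.834, and from 18h-αGal to 72h-αGal it was -0.35 ± 0.167 with an adjusted p of 0.221 (edgeR). Without 72h-αGal replicate 1 the latter was -0.57 and was called (adjusted p = 0.0481 in edgeR).

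**Figure D1:**
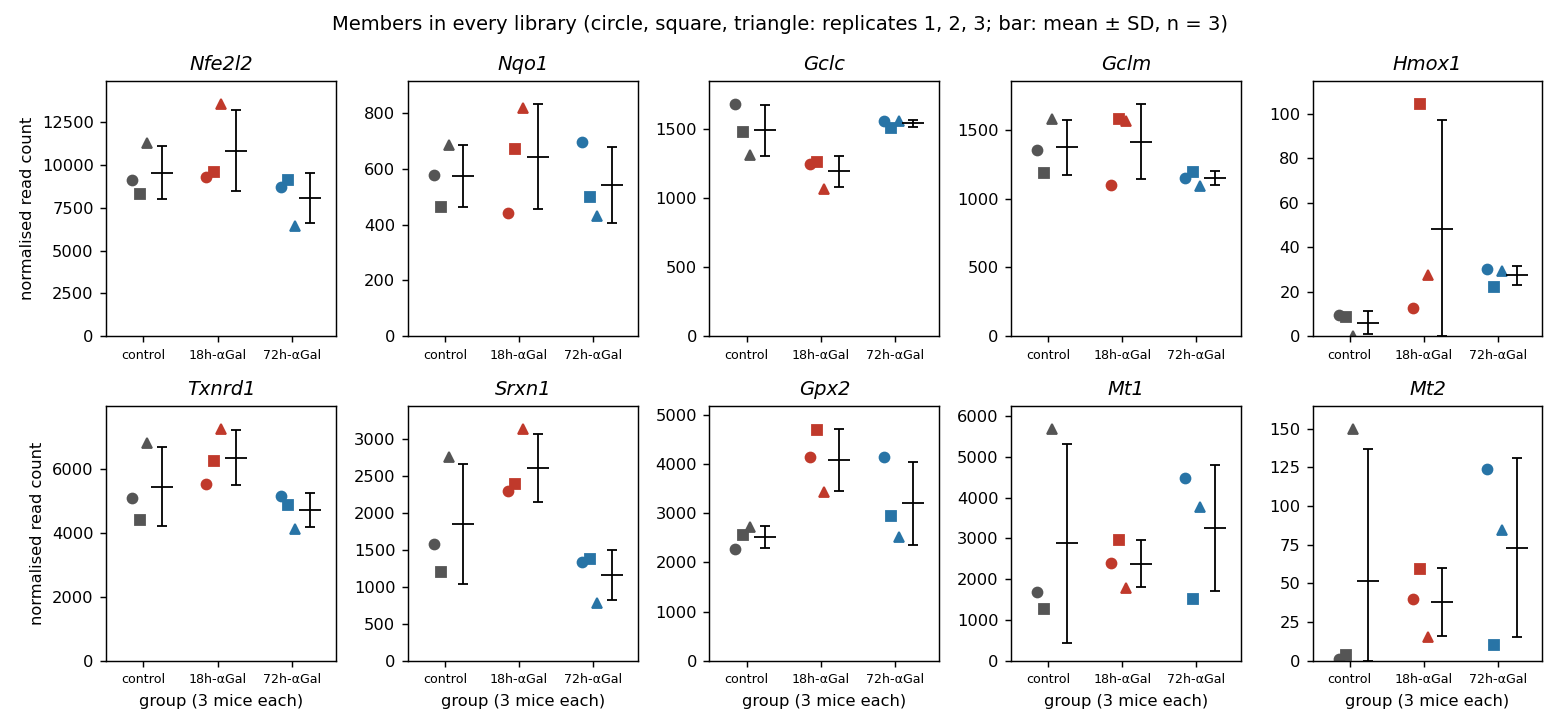
Normalised read counts (y axis, linear, from 0) of the 10 members in each of the 9 libraries, by group, with circles, squares and triangles for replicates 1, 2 and 3 and bars for the mean ± SD of 3 mice, cut at 0. The 18h-αGal libraries of Gpx2, from 3433 to 4694, all lie above the control libraries, whereas Mt1 and Mt2 have control libraries both below and above every 18h-αGal library.

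Hmox1 had the largest log2 fold change of the members and few reads. The raw count of Hmox1 (ENSMUSG00000005413, chr8:75820241-75827217, plus strand) was between 0 and 116 in the 9 libraries. The normalised counts were 9.397, 8.543 and 0 in control, 12.61, 104.2 and 27.6 in 18h-αGal, and 30.12, 22.19 and 29.44 in 72h-αGal. Each library after αGalCer lay above each control library, but 18h-αGal replicate 2 stood far above the other 2 of its group. The 0 in control replicate 3, the library with the fewest counts, allows a level of up to 0.338 CPM at 3 counts, which covers counting error only. Against control, the log2 fold change was 2.82 ± 0.917 at 18 h, with an adjusted p of 0.0853, and 2.01 ± 0.904 at 72 h, with an adjusted p of 0.826 (edgeR). It was not called in either comparison. At 18 h it was called in DESeq2, with an adjusted p of 0.0257, and in edgeR without the filter on low counts, with an adjusted p of 0.0342. Without 18h-αGal replicate 2 the value was 1.58 with an adjusted p of 0.493 in edgeR. Macrophages, which break down red blood cells, are a known site of Hmox1 expression. Of 11 myeloid markers 8 were in the table, and their summed level was 29.38 to 33.17 CPM in control, 27.89 to 44.05 CPM in 18h-αGal and 40.77 to 55.65 CPM in 72h-αGal, most of it from Cd68 and Cd14. Adgre1, which encodes the macrophage marker F4/80, had no counts in 7 of the 9 libraries and at most 0.283 CPM. C1qa was at 0 in 7 and reached 1.64 CPM in control replicate 1. Csf1r (0.12 to 1.57 CPM), Itgam (0.608 to 3.54 CPM) and Lyz2 (0.243 to 1.56 CPM) had counts in every library, and Itgax reached 2.28 CPM. The part of such cells in the Hmox1 values was not tested.

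The 2 subunits of glutamate-cysteine ligase, the enzyme that limits glutathione synthesis, were not called in any comparison. Gclc (ENSMUSG00000032350, chr9:77661797-77701770, plus strand) had 1677, 1478 and 1308 normalised counts in control, 1247, 1259 and 1065 in 18h-αGal and 1552, 1508 and 1555 in 72h-αGal. All 18h-αGal libraries lay below those of both other groups. The log2 fold change of Gclc was -0.32 ± 0.131 at 18 h against control (adjusted p = 0.18) and 0.38 ± 0.131 at 72 h against 18 h (adjusted p = 0.0853), both in edgeR. The second was called without control replicate 3 (adjusted p = 0.0475 in edgeR). Gclm (ENSMUSG00000028124, chr3:122039126-122065061, plus strand) had 1354, 1186 and 1586 in control, 1101, 1580 and 1570 in 18h-αGal, and 1155, 1197 and 1096 in 72h-αGal. The Gclm groups overlapped in each comparison, and the log2 fold change at 18 h was 0.05 with a 95% confidence interval from -0.28 to 0.38. As a measure within each library, the ratio of Gclc to Gclm counts was 1.24, 1.25 and 0.825 in control, 1.13, 0.797 and 0.678 in 18h-αGal, and 1.34, 1.26 and 1.42 in 72h-αGal. The 72h-αGal ratios lay above those of both other groups, with an exact two-sided permutation p of 0.1 in each case, which is the smallest p that 3 against 3 mice allow. Between 18h-αGal and control the exact permutation p was 0.2. Exons of Gclm share 10.9% of their bases with the antisense gene Gm17494 and 6.18% with a pseudogene, Gm6061, on the same strand, and how reads were assigned there was not stated.

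Srxn1, Txnrd1 and Nfe2l2 had their highest group means at 18 h and their lowest at 72 h, as did Nqo1 and Gclm. Srxn1 (ENSMUSG00000032802, chr2:151947436-151957687, plus strand) had 1578, 1199 and 2760 normalised counts in control, 2302, 2389 and 3136 in 18h-αGal and 1341, 1377 and 775.6 in 72h-αGal. The 72h-αGal libraries lay below all 18h-αGal libraries, while control replicate 3 fell within the 18h-αGal range. The log2 fold change of Srxn1 was 0.52 ± 0.321 at 18 h against control (adjusted p = 0.423) and -1.16 ± 0.324 at 72 h against 18 h (adjusted p = 0.0591), neither called in edgeR. Without control replicate 3 both were called, at 0.91 (adjusted p = 0.0404) and -1.16 (adjusted p = 0.00431). The difference between the time points was also called in DESeq2, with an adjusted p of 0.000368, in edgeR with only those 2 groups fitted (0.00471), with library totals as the only scaling (0.0252) and without control replicate 2 (0.0224). Against control at 72 h the log2 fold change of Srxn1 was -0.64 ± 0.323 with an adjusted p of 0.863 (edgeR).

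Txnrd1 (ENSMUSG00000020250, chr10:82669785-82733546, plus strand) had 5109, 4422 and 6835 normalised counts in control, 5547, 6263 and 7265 in 18h-αGal and 5147, 4881 and 4115 in 72h-αGal. Its log2 fold change was 0.23 ± 0.15 at 18 h against control (adjusted p = 0.425) and -0.42 ± 0.15 from 18 h to 72 h (adjusted p = 0.0905) in edgeR, and the groups of the second comparison did not overlap. The latter was called without control replicate 3, without the filter, and with only the 2 groups fitted. Nfe2l2 (ENSMUSG00000015839, chr2:75504739-75534985, minus strand) had 9103, 8288 and 11270 normalised counts in control, 9295, 9615 and 13550 in 18h-αGal, and 8692, 9140 and 6414 in 72h-αGal. The log2 fold change of Nfe2l2 was 0.19 ± 0.165 at 18 h (adjusted p = 0.583), -0.23 ± 0.165 at 72 h against control (adjusted p = 0.898) and -0.41 ± 0.166 between the time points (adjusted p = 0.137), none of them called in edgeR. The same libraries stood out for all 3 genes, and also for Nqo1. Control replicate 3 and 18h-αGal replicate 3 were the highest libraries of their groups for each of the 3 genes, and 72h-αGal replicate 3 was the lowest. The enterocyte marker sum was 21650 CPM in control replicate 3 and 16660 CPM in 18h-αGal replicate 3, the highest of their groups, and 5243 CPM in 72h-αGal replicate 3, the lowest of its group. The part of cell composition in these values was not tested.

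Nqo1, often used as a readout of NRF2, had 578.5, 463.2 and 684.7 normalised counts in control, 442.6, 670.1 and 816.8 in 18h-αGal, and 696.2, 499.2 and 431.2 in 72h-αGal. The 3 groups overlapped. The log2 fold change of Nqo1 (ENSMUSG00000003849, chr8:108113835-108129934, minus strand) at 18 h was 0.17 ± 0.235 with a 95% confidence interval from -0.33 to 0.67 (adjusted p = 0.754), and at 72 h against control -0.07 ± 0.235 (adjusted p = 0.992) in edgeR. The interval at 18 h includes 0.

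Mt1 (ENSMUSG00000031765) and Mt2 (ENSMUSG00000031762) lie side by side on chromosome 8, at chr8:94905710-94906955 and chr8:94898819-94900207 on the plus strand of GRCm39, with 5502 bases between them. Mt1 had 1678, 1266 and 5687 normalised counts in control, 2385, 2963 and 1795 in 18h-αGal, and 4492, 1525 and 3775 in 72h-αGal. Mt2 had 1.175, 3.797 and 149.8 in control, 39.72, 59.29 and 15.18 in 18h-αGal, and 123.9, 10.09 and 84.63 in 72h-αGal. The libraries of each group were spread so widely that the 3 groups overlapped for both genes. In both treated groups the order of the libraries was the same for the 2 genes, and in control replicate 3 was by far the highest for both. The log2 fold change at 18 h was -0.25 ± 0.671 for Mt1 (adjusted p = 0.89) and -0.27 ± 1.57 for Mt2 (adjusted p = 0.952), neither called in edgeR. The direction at 18 h depended on single libraries. Without 18h-αGal replicate 3 the log2 fold change of Mt2 was 0.10 (adjusted p = 0.988 in edgeR). Without control replicate 3 the log2 fold change at 18 h was 0.70 for Mt1 (adjusted p = 0.501) and 3.998 for Mt2 (adjusted p = 0.037), the latter against control libraries of 2 and 4 raw counts. At 72 h against control the log2 fold changes were 0.21 ± 0.67 for Mt1 and 0.65 ± 1.56 for Mt2 with adjusted p-values of 0.992 and 0.983 in edgeR, and without control replicate 3 they were 1.16 and 4.93.

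The level of Mt2 was far below that of its neighbour. The ratio of Mt1 to Mt2 raw counts was 1430, 334 and 38 in control, 60, 50 and 118 in 18h-αGal and 36.2, 151 and 44.6 in 72h-αGal. The highest ratios were those of control replicates 1 and 2, where Mt2 had the 2 and 4 counts given above. The exact two-sided permutation p was 0.4 at 18 h and 0.3 at 72 h against control, and 0.7 between the time points. The smallest possible p is 0.1, so this test could not reach 0.05 and leaves a difference between groups undecided. Of the annotated exon bases of Mt2, 82.4% are shared with Gm45774, a long non-coding gene on the opposite strand that had 0 to 40 raw counts. The strand setting of the counting was not stated. Reads of Mt2 and Gm45774 therefore cannot be told apart with certainty, and the Mt2 values are uncertain, whereas no other gene was annotated over the exons of Mt1.

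**Figure D2:**
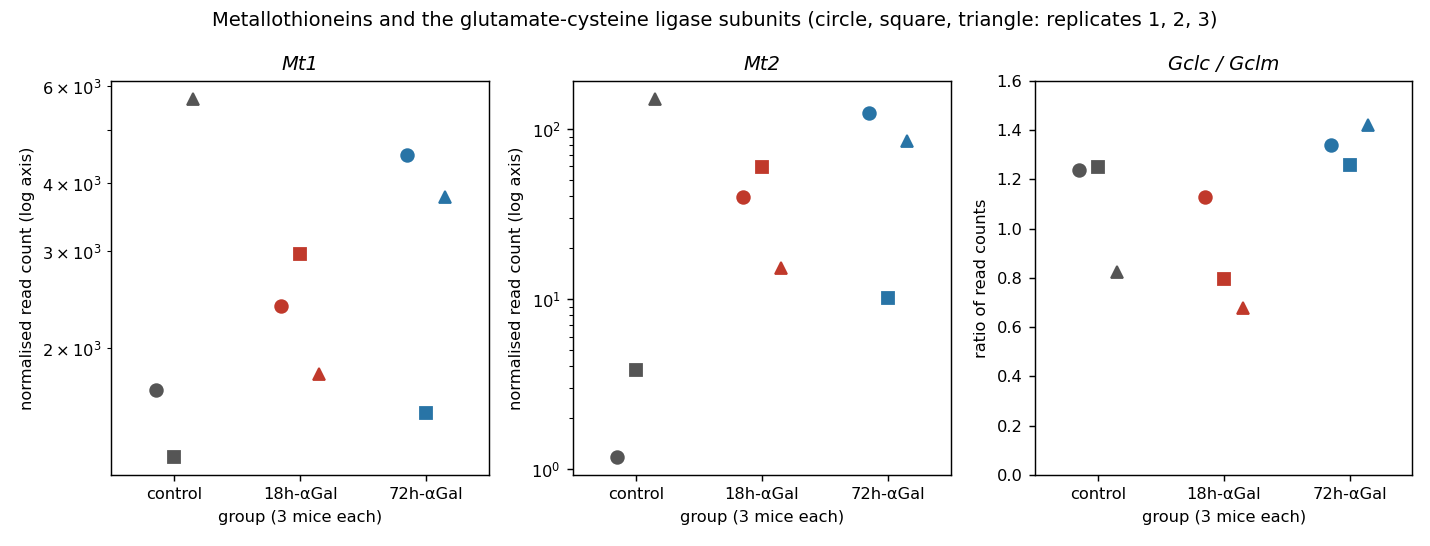
Normalised read counts of Mt1 and Mt2 (left and middle, log axes) and the ratio of Gclc to Gclm raw counts (right, linear axis from 0) in each library by group, with circles, squares and triangles for replicates 1, 2 and 3. Control replicate 3 is the highest library for Mt1 at 5687 and for Mt2 at 149.8, and the 72h-αGal ratios of 1.26 to 1.42 lie above all others.

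In total, 1 of 10 members was called at 18 h against control, and 0 in both other comparisons. At 18 h, 7 members had a positive and 3 a negative log2 fold change, and the median was 0.18, against -0.03 for the whole table. For 3 members the unadjusted p was below 0.05, as it was for 20.8% of all genes. The 2 groups did not overlap for 3 members, Gclc, Hmox1 and Gpx2, compared with 23.8% of all genes. At 72 h against control 0.0264% of all genes, or 5 genes, were called, and 2 members had an unadjusted p under 0.05 in edgeR, Hmox1 (0.0422) and Gpx2 (0.0471), compared with 5.94% of all genes. DESeq2 also called 0 members there. The groups did not overlap for 1 member, Hmox1, compared with 12.7% of all genes. Between 18h-αGal and 72h-αGal 10.2% of all genes were called, 4.18% higher and 6.04% lower at 72 h, and 4 members had an unadjusted p under 0.05 in edgeR, Srxn1, Gclc, Txnrd1 and Nfe2l2, compared with 24.3% of all genes. DESeq2 called 1 of these, Srxn1. The same 4 did not overlap between the groups, compared with 32.8% of all genes.

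**Figure D3:**
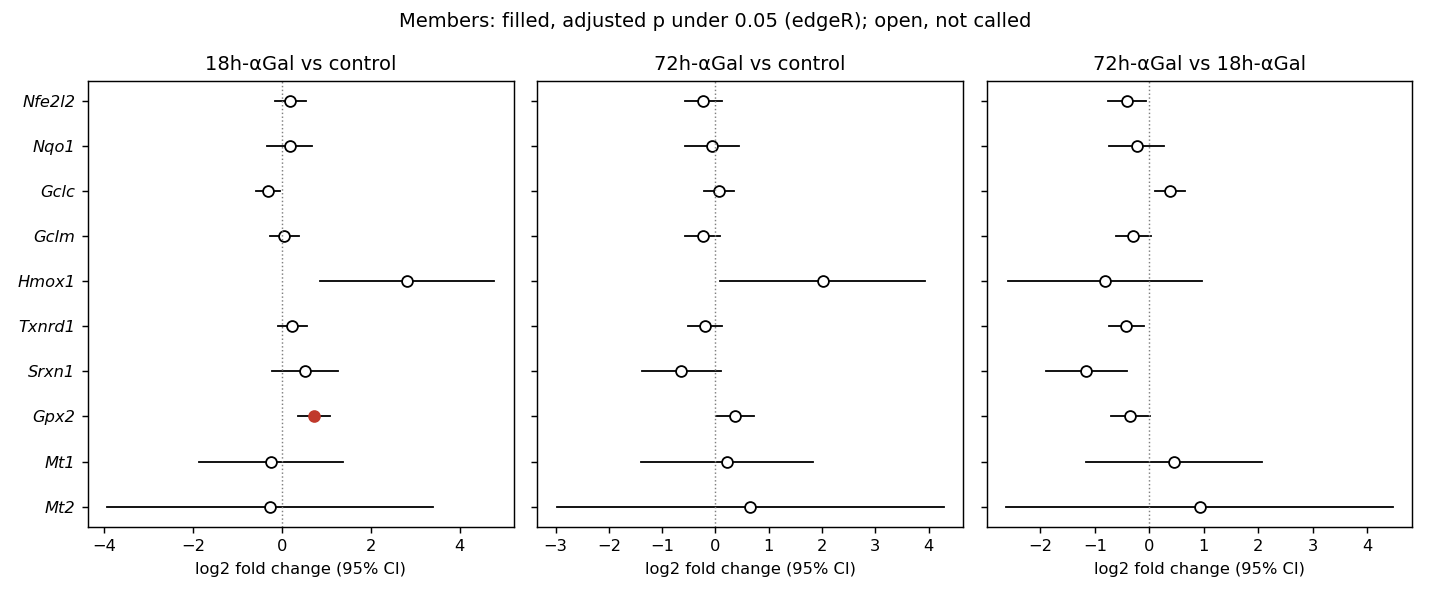
Log2 fold changes of the 10 members with 95% confidence intervals (x axis, 0 at the dotted line, a scale for each panel) in the 3 comparisons, with filled points for an edgeR adjusted p under 0.05. Gpx2 at 18 h, at 0.71, is the only filled point, and the widest intervals are those of Mt2, Hmox1 and Mt1.

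The surrounding pathway was followed in 86 companion genes, of which 82 passed the filter. They were chosen with earlier results of these data known, so the shares called below are descriptive only. At 18 h against control 10 of 82 (12.2%) were called, 5 higher and 5 lower, compared with 5.96% of all genes, 3.27% higher and 2.69% lower. The median log2 fold change was 0.04, against -0.03 for the whole table. The genes that rose were Gsr, Glrx, Txn1, G6pdx and Pgd. G6pdx, the first enzyme of the pentose phosphate pathway, had 1603, 1448 and 1555 normalised counts in control and 2624, 2864 and 2671 in 18h-αGal, a log2 fold change of 0.83 ± 0.117 (adjusted p = 0.00106 in edgeR). Pgd, which makes the second NADPH of that pathway, had 4244, 3232 and 4683 in control and 6331, 6492 and 7394 in 18h-αGal, a log2 fold change of 0.74 ± 0.152 (adjusted p = 0.0103 in edgeR). Gsr, the glutathione reductase that spends this NADPH, had 4201, 4196 and 5273 in control and 7721, 8994 and 8168 in 18h-αGal, a log2 fold change of 0.87 ± 0.129 (adjusted p = 0.00152 in edgeR). The libraries of both groups did not overlap for any of the 3 genes. Each of these 3 calls was made under all 15 alternatives. Glrx, which encodes glutaredoxin, rose by 0.58 ± 0.148 (adjusted p = 0.0309) and Txn1, thioredoxin, by 0.62 ± 0.165 (adjusted p = 0.0395) on the log2 scale in edgeR. These 2 calls were less stable. Glrx was not called without control replicate 1 or 2 or 18h-αGal replicate 2 or 3, and Txn1 was not called without control replicate 1 or 2, any 18h-αGal replicate or 72h-αGal replicate 2, or with DESeq2 size factors in edgeR.

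Of the 5 companions that fell at 18 h, 3 remove peroxides or electrophiles. Cat, the peroxisomal catalase, had 4322, 3734 and 5437 normalised counts in control and 2039, 1479 and 2663 in 18h-αGal, with no overlap, and fell by 1.12 ± 0.194 on the log2 scale (adjusted p = 0.00557 in edgeR). The glutathione S-transferase Gsta4 had 887.5, 590.4 and 917.7 in control and 252.2, 275.8 and 350.5 in 18h-αGal, and fell by 1.44 ± 0.261 (adjusted p = 0.00546 in edgeR). Gstm1, of the same enzyme class, had 2446, 1627 and 3326 in control and 882.7, 1004 and 971.4 in 18h-αGal, and fell by 1.36 ± 0.256 (adjusted p = 0.013 in edgeR). Both transferases belong to gene families with similar members, between which reads can be split, and Gstm1 was not called without any one of the 18h-αGal replicates. Slc30a4, a zinc exporter of the ZnT family, fell by 0.54 ± 0.121 (adjusted p = 0.0169 in edgeR) and was not called without control replicate 1 or 18h-αGal replicate 2.

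Of the 12 regulators of the pathway, 1 was called at 18 h, compared with 5.96% of all genes. Bach1, the repressor at AREs, had 2148, 2122 and 2527 normalised counts in control and 1799, 1374 and 1516 in 18h-αGal, and fell by 0.52 ± 0.127 on the log2 scale (adjusted p = 0.0239 in edgeR). This call was lost without control replicate 1, 18h-αGal replicate 2 or 18h-αGal replicate 3. With only the 2 groups fitted, the calls of Bach1, Slc30a4, Glrx and Txn1 were lost. Keap1, the sensor that holds NRF2, had 673.7, 779.3 and 720.3 in control and 974.8, 1119 and 1102 in 18h-αGal, a log2 fold change of 0.56 ± 0.171 that was not called (adjusted p = 0.0659 in edgeR), although the groups did not overlap. Without 72h-αGal replicate 1, or without the filter on low counts, Keap1 was called. Mtf1, the zinc-sensing activator of the metallothioneins, had 767.6, 898.9 and 1167 in control and 1291, 1190 and 1298 in 18h-αGal. The groups of Mtf1 did not overlap either, as was the case for 23.8% of all genes. Its log2 fold change was 0.43 ± 0.152 and was not called (adjusted p = 0.112 in edgeR), but Mtf1 was called without control replicate 3.

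At 72 h against control 0 of 82 companions were called by edgeR, where 0.0264% of all genes were called, and 0 by DESeq2. In edgeR 15 of the 82 had an unadjusted p under 0.05, compared with 5.94% of all genes. The 4 with the smallest p were Slc30a4 at -0.52 ± 0.121 (adjusted p = 0.51), the mitochondrial peroxiredoxin Prdx3 at -0.49 ± 0.137 (0.695), the secreted glutathione peroxidase Gpx3 at -1.02 ± 0.292 (0.701) and the aldo-keto reductase Akr1b8 at 1.40 ± 0.446 (0.809) on the log2 scale in edgeR. For each of these 4 genes the 72h-αGal and control libraries did not overlap, as was the case for 13 of the 82 companions and 12.7% of all genes. The log2 fold changes of Keap1, Bach1 and Mtf1 were 0.10 ± 0.171, -0.27 ± 0.126 and -0.0037 ± 0.152, and none was called.

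Between 18h-αGal and 72h-αGal 19 of 82 companions (23.2%) were called, 5 higher and 14 lower at 72 h, compared with 10.2% of all genes, 4.18% higher and 6.04% lower. The median log2 fold change was -0.25, against 0.05 for the whole table. The 5 genes that had risen at 18 h were all among those called lower, in a comparison that shares the 18h-αGal libraries with the first. G6pdx had 1795, 1435 and 1687 normalised counts in 72h-αGal and fell by 0.72 ± 0.117 from 18 h (adjusted p = 0.00181 in edgeR). Gsr had 5503, 4452 and 4142 and fell by 0.81 ± 0.129 (adjusted p = 0.00165), Pgd fell by 0.85 ± 0.152 (0.00317) and Glrx by 0.87 ± 0.148 (0.0023) in edgeR. Of 12 genes for thioredoxins and peroxiredoxins, which reduce peroxides with electrons from thioredoxin, 7 were called, 6 lower and 1 higher. Prdx3 had 1293, 1600 and 1250 normalised counts in 18h-αGal and 787.7, 741.3 and 786.7 in 72h-αGal, and fell by 0.83 ± 0.137 (adjusted p = 0.00194 in edgeR). Prdx2 fell by 0.59 ± 0.111 (0.00451), Prdx6 by 0.53 ± 0.111 (0.00803) and the mitochondrial thioredoxin Txn2 by 0.52 ± 0.119 (0.0122) in edgeR. Gpx3 had 298.2, 463.5 and 709.2 at 18 h and 180.7, 204.7 and 126.6 at 72 h, and fell by 1.51 ± 0.293 (adjusted p = 0.00518 in edgeR). Maff, which encodes a small MAF partner of NRF2, went the other way and rose by 0.93 ± 0.216 on the log2 scale (adjusted p = 0.0139 in edgeR). Its normalised counts were 707.7, 617.9 and 558.7 in control, 510.7, 276.7 and 320.1 in 18h-αGal and 715.9, 642.4 and 745.4 in 72h-αGal. The 18h-αGal libraries of Maff lay below every control library, and those of 72h-αGal overlapped control. At 18 h against control its log2 fold change was -0.76 and was not called (adjusted p = 0.0526 in edgeR). Txn2 and Maff were not called without 18h-αGal replicate 2 or 72h-αGal replicate 3, and Txn1 (-0.60 ± 0.165, adjusted p = 0.0321 in edgeR) was not called without 18h-αGal replicate 2 or 3 or 72h-αGal replicate 2 or 3. Keap1, Bach1 and Mtf1 had log2 differences of -0.46, 0.26 and -0.43 between the time points, with adjusted p-values of 0.102, 0.234 and 0.0843 in edgeR, and none was called.

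**Figure D4:**
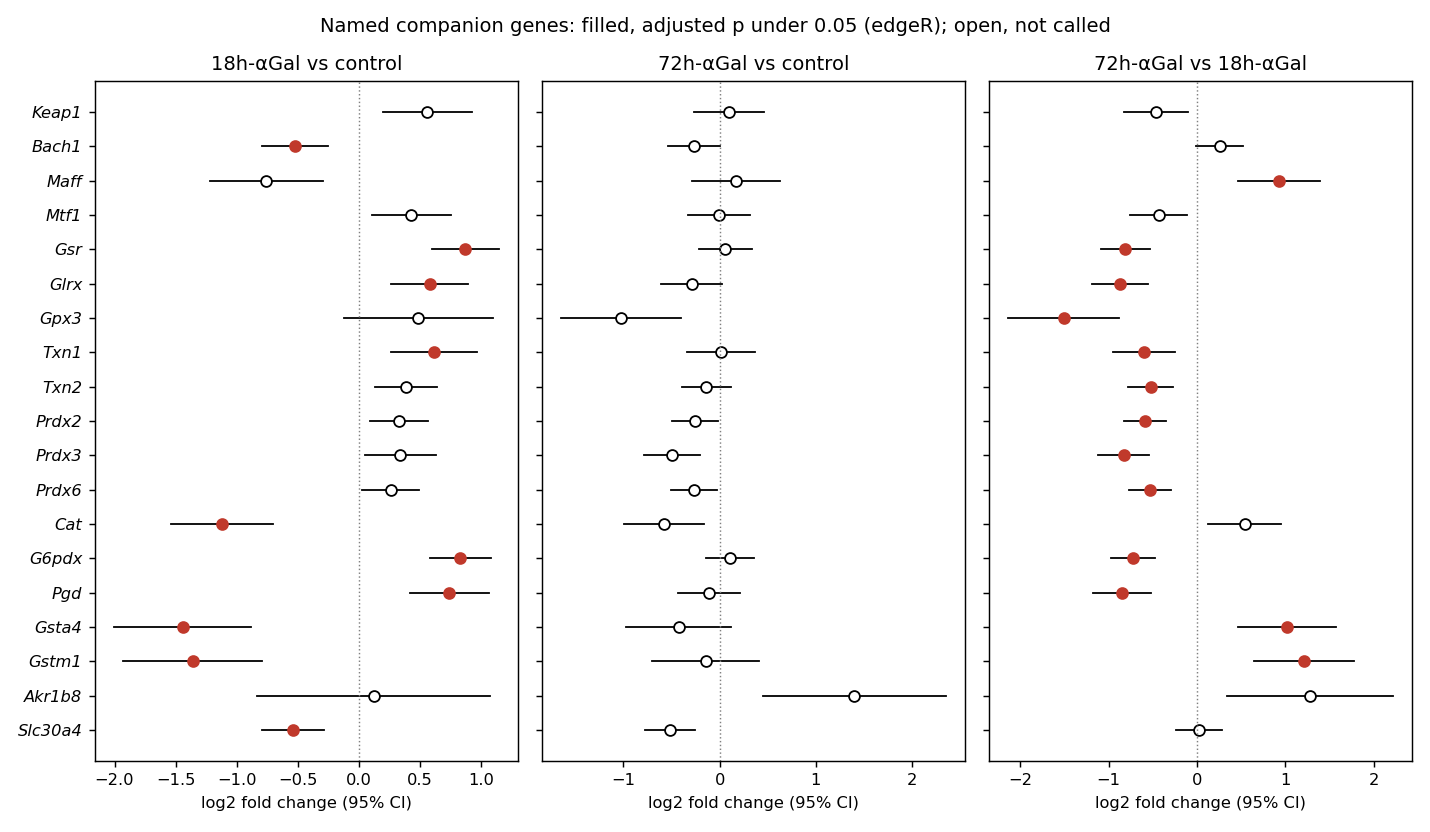
Log2 fold changes of the 19 named companion genes with 95% confidence intervals (x axis, 0 at the dotted line, a scale for each panel) in the 3 comparisons, with filled points for an edgeR adjusted p under 0.05. G6pdx, Gsr and Pgd are filled at 18 h against control at 0.83, 0.87 and 0.74, no point is filled at 72 h against control, and the peroxiredoxins Prdx2, Prdx3 and Prdx6 are filled only between the time points.

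At 18 h against control, where 5.96% of all genes were called, the calls were spread over 6 of the lists of companions by function beside that of the regulators. Of 10 genes of the glutathione cycle 2 were called, both higher. Of 6 genes of NADPH supply 2 were called, both higher. Of 12 genes for thioredoxins and peroxiredoxins 1 was called higher, of 4 genes for enzymes that remove peroxide or superoxide 1 was called lower, and of 16 tested detoxification genes 2 were called lower, with a median log2 fold change of -0.58. DESeq2 called 6 of these 16. The 5.96% is an edgeR share, and no share of all genes in DESeq2 is given beside this count. In DESeq2, 2 regulators and 2 thioredoxin or peroxiredoxin genes were called, against 1 of each in edgeR. Of 7 genes of heme and iron handling 0 were called by edgeR, where 2 had an unadjusted p under 0.05, and 0 by DESeq2. Of 15 tested zinc and copper genes 1 was called, lower, with a median of -0.05.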

How the data were processed

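Per the labels and the study's methods, ribodepleted, strand-directional libraries were read as 100 bp reads, mapped with HISAT2 and counted with featureCounts (Subread). The methods name the build GRCm39, whereas the submitters' processing notes list GRCm38 and mm10. Annotation release and strand setting are not given in the sources used here. The authors deposited a raw read count per gene and library, and a normalised signal that equals the count divided by a DESeq2 size factor per library. Of 29288 identifiers, 28480 matched GENCODE vM39, source of symbols and GRCm39 positions, and 808 did not. Matched genes held 98.4% of counts. Counts were filtered with filterByExpr (minimum count 10), scaled by TMM and fitted with the robust quasi-likelihood test of edgeR 4.0.16 (R 4.3.3) over all 9 libraries, with 3 contrasts and Benjamini-Hochberg adjustment over 18933 genes. The procedure was tested on simulated data. DESeq2 1.42.0, other scalings, no filter, 2 groups alone, a replicate block and leaving out each library were alternatives. Ratios were compared with exact permutation tests. Members, companion lists and markers were chosen with earlier results of these data known. All 10 members, Keap1, Bach1 and Mtf1 are named, with up to 10 called companions per comparison by adjusted p, or the 4 with the smallest p where fewer than 4 were called. In companion counts, Cbr3, Aldh3a1, Mt3 and Mt4 did not pass the filter. The edgeR p-values set a difference between groups of 3 mice against the spread between mice within groups. That spread is estimated from all 9 libraries and across genes.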

Additional observations from a re-analysis of the deposited data

Results flagged for a closer look

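For 13 named companion genes the change from control at 72 h differed from that at 18 h. Both changes share the control libraries, so the direct edgeR comparison of 72h-αGal with 18h-αGal tests their difference. Companions called in that comparison with the smallest adjusted p were named for that reason, so this is not a separate result. Of all genes, 10.2% were called there. The log2 difference was negative for Gsr (-0.81), Gpx3 (-1.51), Glrx (-0.87), Txn1 (-0.60), Txn2 (-0.52), Prdx2 (-0.59), Prdx3 (-0.83), Prdx6 (-0.53), G6pdx (-0.72) and Pgd (-0.85). It was positive for Maff (0.93), Gsta4 (1.02) and Gstm1 (1.21). The call of Gsta4 was lost without 18h-αGal replicate 1 or 2 or 72h-αGal replicate 1 or 2, that of Gstm1 without any one of the 18h-αGal replicates, and that of Txn1 without 18h-αGal replicate 2 or 3 or 72h-αGal replicate 2 or 3. None of the 10 members was in this group.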

How the results depend on the processing

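Of the 15 alternatives, DESeq2 and edgeR without the filter each called 2 members at 18 h in place of 1. DESeq2 called 16 companions at 18 h in place of 10, and edgeR with only the 2 groups fitted called 6. The count of all genes called moved as well. Over the 15 alternatives it ranged from 432 to 1720 at 18 h and from 831 to 2593 between the time points. In the main fit it was 1128 and 1936. Between the time points, library totals only, no filter and DESeq2 each called 1 member in place of 0, and the fit of only the 2 groups called 2. With a replicate block 1, 0 and 0 members and 8, 0 and 14 companions were called in the 3 comparisons. Among the named companions the block ended the calls of Bach1, Gstm1 and Txn1 at 18 h and of Txn1 and Gsta4 between the time points. The log2 fold changes of Mt1 and Mt2 at 18 h then became 0.066 and 1.27, and that of Mtf1 at 72 h 0.006. Mtf1 at 72 h was 0.05 with library totals only and 0.009 without the filter. The cause was not tested. Same-numbered libraries had correlations of their deviations from the group means between -0.15 and 0.11. For differently numbered libraries the correlations were between -0.1 and 0.14. No pairing by number was seen, and shared handling by number was not tested. With library totals only, the median of all genes between the time points moved from 0.05 to 0.12.

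Leaving out each library in turn gave 0 to 3 members and 6 to 15 companions called at 18 h, 0 members and 0 companions at 72 h against control, and 0 to 3 members and 10 to 22 companions between the time points. Of all genes, 432 to 1556 were called at 18 h and 0 to 20 at 72 h against control. Between the time points 831 to 2593 were called. The most calls, also among all genes, came without control replicate 3, the library with the fewest counts. The log2 fold changes that changed sign ranged at 18 h from 0.00 to 0.32 for Nfe2l2, -0.032 to 0.38 for Nqo1, -0.04 to 0.20 for Gclm, -0.60 to 0.70 for Mt1 and -0.91 to 3.998 for Mt2. At 72 h against control they ranged from -0.28 to 0.072 for Nqo1, -0.024 to 0.16 for Gclc, -0.14 to 1.16 for Mt1, -0.12 to 0.21 for Keap1 and -0.13 to 0.17 for Mtf1, and between the time points from -1.27 to 0.47 for Hmox1. With a group reduced to 2 mice, the spread is estimated largely from the other groups. Depth limits Hmox1 and Mt2, which had at most 116 and 115 raw counts.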

Other observations

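Companion genes outside the naming rule that were called between 18h-αGal and 72h-αGal are given here and were chosen after their values were seen. Slc39a4, a zinc importer of the intestine, fell by 1.56 ± 0.372 on the log2 scale (adjusted p = 0.0393). Sod2, the mitochondrial superoxide dismutase, fell by 0.55 ± 0.128 (adjusted p = 0.0142). Prdx1 fell by 0.48 ± 0.123 (adjusted p = 0.0236), and Ugdh, which makes UDP-glucuronic acid, fell by 0.76 ± 0.205 (adjusted p = 0.0354). Txnrd3 rose by 1.24 ± 0.331 (adjusted p = 0.028) and the transporter Abcc3 by 0.77 ± 0.21 (adjusted p = 0.0397). Against control, the log2 fold changes of Txnrd3 and Abcc3 were 0.11 and 0.08 at 72 h, and -1.13 and -0.69 at 18 h, none called. All values are from edgeR. Of the 15 alternatives, Sod2 was called in 13, Prdx1 and Txnrd3 in 10, and Slc39a4, Ugdh and Abcc3 in 7.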
